A study of Mus musculus with 18 samples.

Results

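The hippocampus and the prefrontal cortex of the same kind of mouse were compared gene by gene: 5xFAD males that had been given extracellular vesicles (EVs), the small membrane-bound particles that cells release, isolated from human breast milk. The members are the 3 hippocampal and the 3 prefrontal libraries whose labels give that genotype, that treatment and 1 of these regions, which makes 6 of the 18 RNA-seq libraries of the series. All mice were male and of the C57BL/6J strain. The 5xFAD line carries human transgenes, APP among them, with familial Alzheimer's disease mutations, driven by a neuronal Thy1 promoter, and deposits amyloid in the brain. The EV mice received the vesicles by intravenous injection every 3 days for 10 injections, from 5 to 6 months of age. The other 2 mouse groups, used here only for comparison, were 5xFAD mice given PBS and wildtype mice given PBS on the same schedule, again with 3 hippocampal and 3 prefrontal libraries each. After behavioural testing the mice were perfused with cold PBS and total RNA was taken from the dissected tissue. The labels do not say whether the replicates are separate mice, nor whether a hippocampal and a prefrontal library with the same number came from 1 mouse. The p-values therefore describe the spread among these libraries, and that spread may be technical.

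The hippocampus is an old cortical fold built from the dentate gyrus, whose granule cells send mossy fibres to the CA3 field, and from CA3 and CA1 pyramidal cells that pass the signal on. The prefrontal cortex is layered neocortex, with upper-layer neurons that project within the cortex and deep-layer neurons that project to the thalamus, brainstem and striatum. Each region carries transcription factors, receptors and ion channels of its own, the hippocampus borders the choroid plexus and ependyma of the lateral ventricle, and in 5xFAD mice both regions accumulate plaques surrounded by activated microglia and astrocytes.

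The deposited table gives FPKM, fragments per kilobase of gene scaled to the library's mapped total, a level corrected for gene length and library depth, for 18683 genes. A gene entered the tests if it reached 0.5 FPKM in at least 3 of the 18 libraries, and 13574 genes did. Differences are hippocampus minus prefrontal cortex on the log2(FPKM + 0.5) scale, where the change of a gene with a low level comes out smaller than it is. They were tested with limma across all 18 libraries, 2-sided, and a gene was called at a Benjamini-Hochberg adjusted p under 0.05 over the 13574 genes. Reads in listed genes ran from 26437852 to 36901744 per library, so that the level given by 1 read at the median gene length was 0.00843 to 0.0118 FPKM.

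Some of the 6 libraries held transcripts of other brain tissue, in differing amounts. The third prefrontal library stood furthest apart: the summed level of the cerebellar granule cell markers, tested or not, was 796.7 FPKM there, against 99.3 and 107.5 FPKM in the other prefrontal libraries and 84.1 to 90.3 FPKM in the hippocampus. Gabra6, a GABA-A subunit of cerebellar granule cells that did not pass the filter on low levels, was at 89.8 FPKM in that library and between 0.0122 and 0.0568 FPKM in the other 5. The same library held 1083 FPKM of choroid plexus markers, against 87.2 and 70.6 FPKM in the other prefrontal libraries. The second prefrontal library had the highest sum of striatal projection neuron markers, 815.8 FPKM against 166 and 292 FPKM. The prefrontal libraries of the other mouse groups held 327.1 to 905.7 FPKM, a range that includes the second EV prefrontal library but not the first and the third. The third hippocampal library had the lowest choroid plexus sum of its group, 271.4 against 6757 and 2717 FPKM, and the highest microglial sum, 1933 against 1100 and 1087 FPKM. Many of the list counts and calls that moved when the third prefrontal library, or another of the 6, was left out are given with the value without it. A count given alone may have moved as well. A call is said to be lost or kept over the 6 fits that each leave out 1 EV library.

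**Figure D1:**
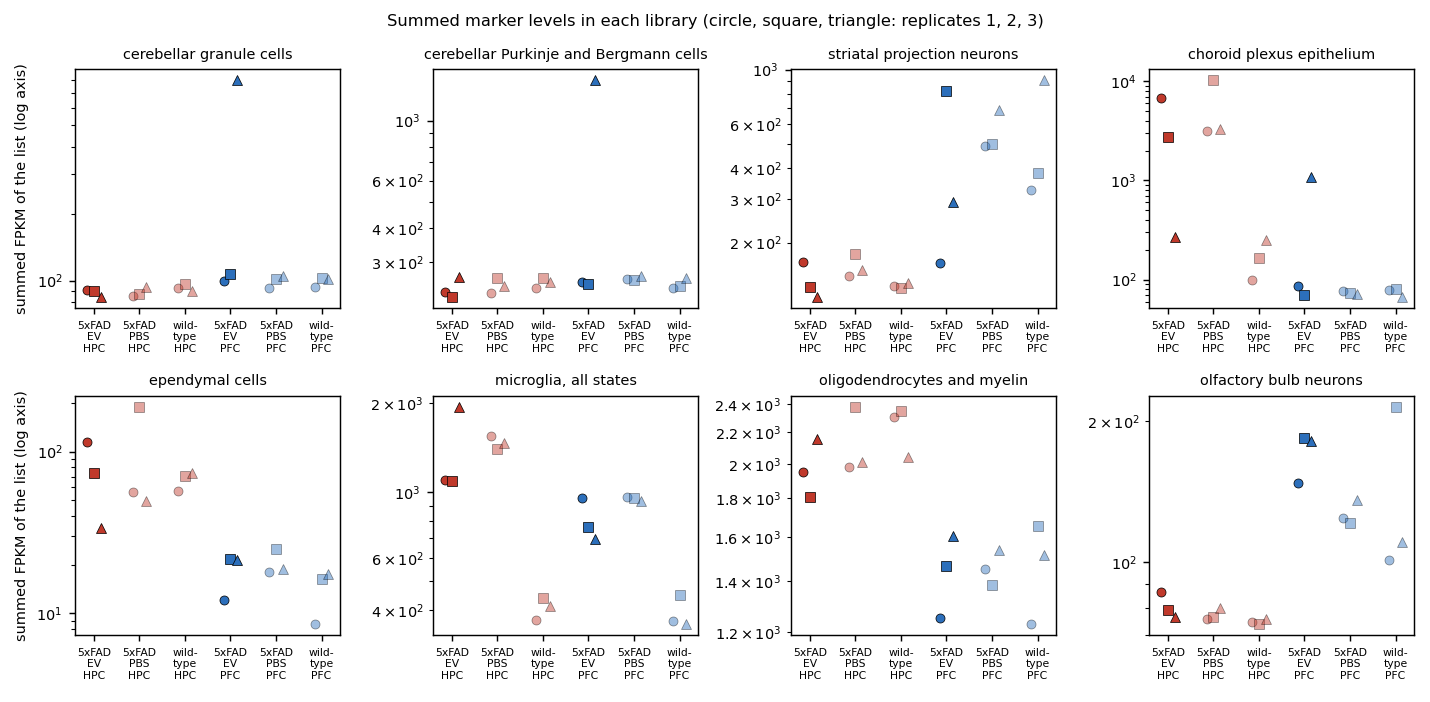
Summed FPKM of 8 cell type marker lists (log axis) in each of the 18 libraries, by mouse group and region (HPC, hippocampus; PFC, prefrontal cortex); circle, square and triangle are replicates 1, 2 and 3, and the EV libraries have the darker colour. The third EV prefrontal library stands alone for the cerebellar lists and is the prefrontal library with the highest choroid plexus sum, 1083 FPKM.

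The 2 regions differed in 2297 of the 13574 genes (16.9%). Of these, 1168 genes (8.6%) were higher in the hippocampus and 1129 (8.32%) were lower there. A difference of over 2-fold on the tested scale was reached by 251 of the higher genes (1.85%) and 260 of the lower genes (1.92%), and without the third prefrontal library by 279 (2.06%) and 253 (1.86%). Over all tested genes the median difference was -0.01. The 6 libraries' values did not overlap between regions in 4193 genes (30.9%), and 2186 of the called genes were among them. Without the third prefrontal library 2101 genes (15.5%) were called, 1067 higher (7.86%) and 1034 lower (7.62%), and 1776 genes were called in both fits, each in the same direction. Leaving out each of the 6 libraries in turn left 1269 genes called every time, 615 higher and 654 lower, and no called gene changed sign in any of these fits.

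**Figure D2:**
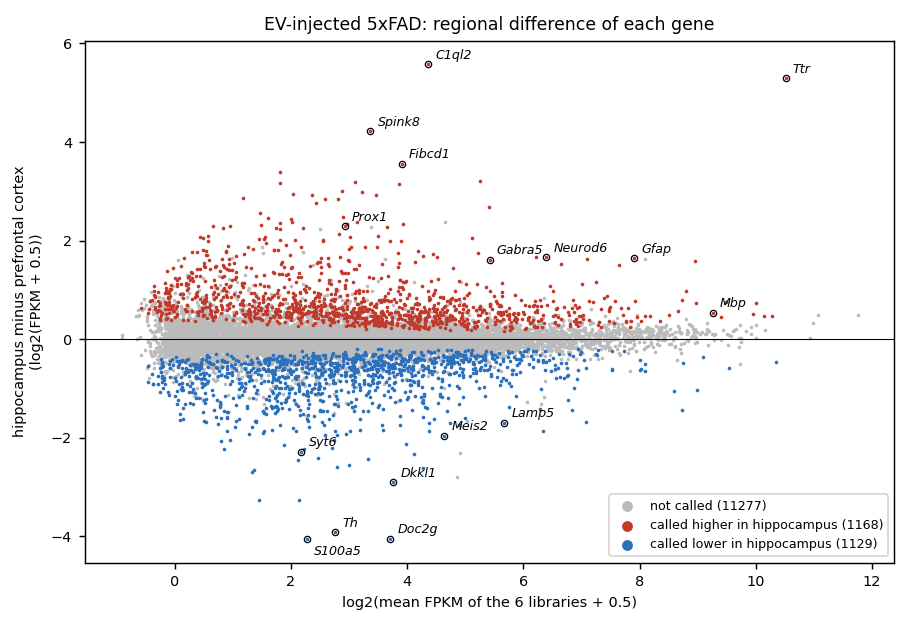
Each point is 1 of the 13574 tested genes, with its mean log2 level on the x axis and its log2 difference, hippocampus minus prefrontal cortex of EV-treated 5xFAD mice, on the y axis. The 1168 genes called higher (red) and 1129 called lower (blue) lie on both sides at all levels, and C1ql2 has the highest labelled difference, 5.57.

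Among genes without overlap between the regions, the 3 with the largest differences in the hippocampal direction were markers of its principal neurons. C1ql2, a C1q-like protein that granule cells secrete at mossy fibre synapses, was at 39.9, 42.2 and 37.1 FPKM in the hippocampal libraries and at 0.245, 0.507 and 0.301 FPKM in the prefrontal ones. No other tested gene separated the regions with a smaller p, and its log2 difference was 5.57 (SE 0.12, adjusted p = 2.02e-14). Spink8, a serine peptidase inhibitor used as a CA1 marker, was at 19.8, 14.7 and 22.7 FPKM against 0.565, 0.965 and 0.212 FPKM. Its difference was 4.22 (adjusted p = 7.16e-08). Fibcd1, an acetyl-group-binding receptor of CA1 cells, was at 30.9, 30.9 and 19.9 FPKM against 1.86, 2.25 and 1.39 FPKM, a difference of 3.56 (SE 0.23, adjusted p = 3.36e-08). In all 3 genes the lowest hippocampal library lay several-fold above the highest prefrontal one. The next genes by the naming rule were Dsp (3.39), the desmosomal protein desmoplakin, Cabp7 (3.21), a calcium-binding protein, Npy2r (3.19), a neuropeptide Y receptor of hippocampal terminals, Lct (3.17), lactase, Ccdc153 (2.92), an ependymal gene, Rasd1 (2.92), a steroid-induced Ras-like protein, Krt2 (2.88) and Olfml2b (2.85).

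Dentate granule cell genes were higher in the hippocampus for 10 of 20 tested members and lower for 1, with a list median of 0.56 against -0.01 over all genes, and the counts were the same without the third prefrontal library. Prox1, the transcription factor that specifies granule cell identity, was at 13.8, 12.8 and 9.61 FPKM in the hippocampus and at 1.80, 1.40 and 3.21 FPKM in the prefrontal cortex. The groups did not overlap, the highest prefrontal value came from the library with cerebellar transcripts, and the difference was 2.30 (SE 0.21, adjusted p = 1.59e-06) with it and 2.57 without it. Dsp was at 7.53, 6.66 and 3.66 FPKM against 0.0525, 0.0426 and 0.199 FPKM. Lct was at 7.36, 5.87 and 4.39 FPKM against 0.307, 0.155 and 0.13 FPKM. Both genes fell to their lowest hippocampal level in the third library without reaching the prefrontal range. The member called lower was Scgn, the calcium sensor secretagogin, at 0.454, 0.532 and 0.379 FPKM against 2.03, 1.97 and 2.39 FPKM (difference -1.46, adjusted p = 0.0016). Calb1, the calcium buffer calbindin, did not pass: its levels were 64.2, 64.5 and 63.7 FPKM against 65, 61.5 and 241 FPKM, where the value of 241 FPKM is the third prefrontal library.

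CA1 pyramidal genes were higher for 7 of 10 tested members and lower for none, with a median of 1.03, and 7 members were called whichever single EV library was left out. Gpr161, an orphan receptor of the primary cilium, was at 6.5, 7.28 and 4.97 FPKM against 0.924, 1.24 and 1.34 FPKM (difference 2.01, adjusted p = 1.21e-06). Crym, a thyroid hormone-binding protein, was at 149, 156 and 137 FPKM against 50.4, 71.3 and 36.7 FPKM (difference 1.52). Wfs1, an endoplasmic reticulum protein widely used to mark CA1, did not separate the regions: it was at 29.7, 34.9 and 39.2 FPKM in the hippocampus and 33.5, 42.1 and 24.8 FPKM in the prefrontal cortex (difference 0.07, adjusted p = 0.839). Its ranges overlapped almost entirely, and neocortical neurons are known to transcribe it too.

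In the CA3 and CA2 list, 10 of 17 tested members were higher and 3 lower, with a median of 0.55. Iyd, iodotyrosine deiodinase, was at 2.26, 2.24 and 1.86 FPKM against 0.0423, 0.0187 and 0.037 FPKM, close to absent from the prefrontal libraries (difference 2.29, adjusted p = 2.9e-08). Ntf3, the neurotrophin-3 gene, was at 5.00, 4.25 and 3.46 FPKM against 0.526, 0.48 and 0.892 FPKM (difference 2.07). Amigo2, an adhesion protein of CA2 and CA3, was at 10.6, 9.16 and 10.3 FPKM against 3, 2.91 and 4.92 FPKM (difference 1.39). The neocortex was the higher side for Coch (difference -1.27), which encodes a secreted matrix protein. Homer3, a postsynaptic scaffold of CA3 and of Purkinje cells, had 19.3, 16.2 and 14.8 FPKM against 2.55, 2.73 and 45 FPKM. It was not called with all libraries (difference 1.17, adjusted p = 0.264) and was called without the third prefrontal one (difference 2.46, adjusted p = 3.24e-07). The hilar mossy cell list had no member higher and 2 lower of 8, where 8.6% of all genes were higher and 8.32% lower. Without the first prefrontal or the first hippocampal library 1 member was higher. The lower count was 1 to 4 when 1 library was left out, and 4 without the first prefrontal library.

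**Figure D3:**
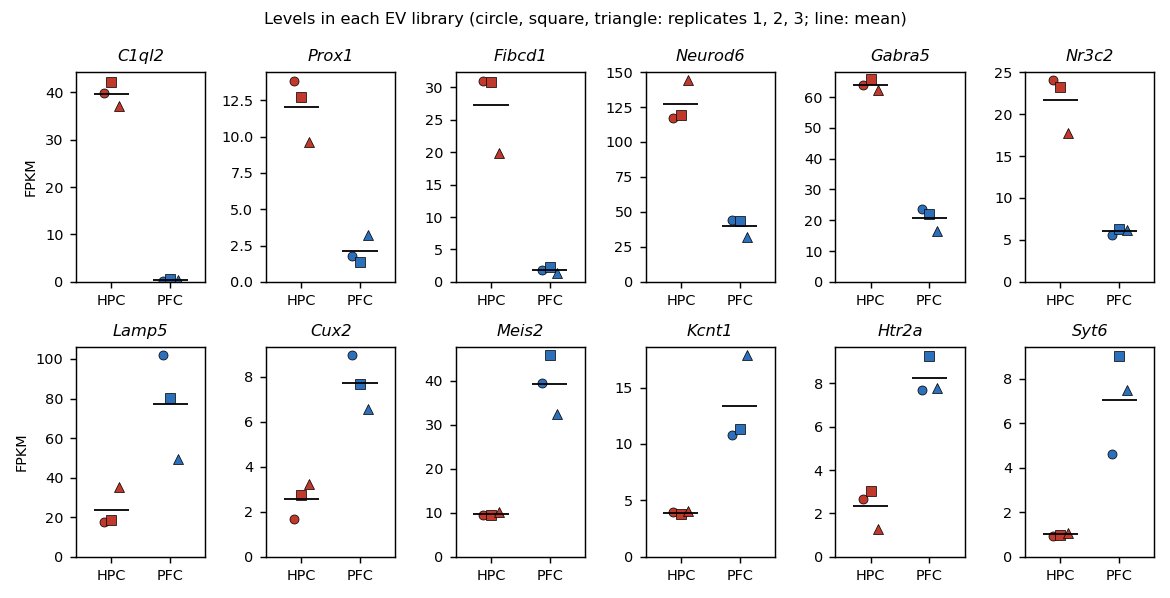
FPKM of 12 genes in each EV library, hippocampus (HPC, red) against prefrontal cortex (PFC, blue); circle, square and triangle are replicates 1, 2 and 3, and the line is the mean of 3. None of the 12 genes has overlapping groups; Gabra5, for example, lies between 62.2 and 65.7 FPKM in the hippocampus and between 16.6 and 23.7 FPKM in the prefrontal cortex.

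The genes lower in the hippocampus were led by neocortical genes and by genes of the olfactory system. Upper-layer neocortical genes were lower for 11 of 18 tested members and higher for 2, with a median of -0.72, and the counts were the same without the third prefrontal library. The lower count was 9 without the first prefrontal, the second prefrontal or the third hippocampal library. Cux2, a homeobox factor of upper-layer neurons, was at 1.68, 2.75 and 3.23 FPKM in the hippocampus and 8.96, 7.67 and 6.55 FPKM in the prefrontal cortex (difference -1.46). Lamp5, a membrane protein of upper-layer and neurogliaform neurons, was at 17.6, 18.4 and 35.1 FPKM against 102, 80.2 and 49.3 FPKM (difference -1.69). In both genes the third library of each region was the one nearest to the other region. Kitl, the ligand of the Kit receptor, was also lower (difference -1.46), with a prefrontal value of 22.5 FPKM in the third library and 10.9 and 10.2 FPKM in the others. Scnn1a, an epithelial sodium channel subunit best known from layer 4, was called in the other direction, at 2.28, 1.9 and 2.66 FPKM against 0.614, 0.744 and 0.323 FPKM (difference 1.40).

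Deep-layer genes were lower for 9 of 25 tested members and higher for 4, with a median of -0.24, which was -0.45 without the third prefrontal library. Without the first prefrontal library 2 were higher. Syt6, a synaptotagmin of corticothalamic neurons, was at 0.942, 0.992 and 1.08 FPKM against 4.62, 9.04 and 7.51 FPKM (difference -2.28). Foxp2, a forkhead factor of layer 6, was at 0.308, 0.196 and 0.273 FPKM against 1.28, 4 and 2.14 FPKM (difference -1.87, adjusted p = 0.000263). Both genes were highest in the second prefrontal library, the one with the highest striatal marker sum, and Foxp2 is also a striatal gene. The part of striatal transcripts in these values was not tested. Hs3st4, a heparan sulfate sulfotransferase on the same list, was higher in the hippocampus, at 9.56, 9.61 and 10.6 FPKM against 4.09, 5.15 and 3.89 FPKM (difference 1.10).

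Among 16 genes of neocortical excitatory identity, 4 were higher and 5 lower, which changed to 3 higher and 8 lower without the third prefrontal library. Cckbr, the brain cholecystokinin receptor, was at 4.53, 5.2 and 9.44 FPKM against 29.5, 20.8 and 15.9 FPKM (difference -1.74). Mef2c, an activity-regulated transcription factor, was at 3.42, 4.55 and 5.6 FPKM against 16.1, 14 and 9.97 FPKM (difference -1.46). In both genes, too, the third hippocampal library was the highest of its group and the third prefrontal library the lowest of its group. Dkkl1, a dickkopf-like secreted protein of neocortical neurons, followed the same order at 1.17, 1.62 and 7.0 FPKM against 29.8, 24.8 and 14.0 FPKM (difference -2.90, adjusted p = 0.000527). The neuronal bHLH factors went the other way. Neurod6 was at 117, 119 and 144 FPKM against 44.1, 43.2 and 32.2 FPKM (difference 1.67, SE 0.13, adjusted p = 4.02e-07), and Neurod2 was at 40.2, 40.8 and 35.1 FPKM against 24.5, 18.6 and 28.1 FPKM (difference 0.71, adjusted p = 0.000939).

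Since 2 NeuroD factors were among the called genes, the promoters of the genes with the largest differences were searched for the E-box CAGATG, which these factors can bind, on both strands (CATCTG on the printed strand is the same motif, and the 2 forms do not overlap). RefSeq's promoter table for the GRCm38.p6 build matched 19 of the 24 genes named by size. In the 250 bases before a listed start the motif stood in 2 of 9 genes with the largest higher differences and 3 of 10 with the largest lower ones. Of all windows of the same length, 4745 of 32851 (14.4%) hold it. A gene was counted if any of its listed starts had the motif, while windows were counted singly, so these shares are not like for like. The sequences are shown for 4 genes with the motif, 2 higher in the hippocampus (Prox1 and Gabra5, a GABA-A receptor subunit) and 2 lower (Dkkl1 and Doc2g), 5′ to 3′ on the gene's strand, with the motif in capitals. Prox1 and Gabra5 were picked from outside the 24 genes named by size and are not part of the counts above. The first base of the motif lies 179 bases before the start in Prox1 (1 of its 2 listed starts), 223 in Gabra5, 109 in Dkkl1 and 61 in Doc2g. A match is a description of letters, and it occurred in genes of both directions.
Prox1, chr1:190170828-190171077, minus strand: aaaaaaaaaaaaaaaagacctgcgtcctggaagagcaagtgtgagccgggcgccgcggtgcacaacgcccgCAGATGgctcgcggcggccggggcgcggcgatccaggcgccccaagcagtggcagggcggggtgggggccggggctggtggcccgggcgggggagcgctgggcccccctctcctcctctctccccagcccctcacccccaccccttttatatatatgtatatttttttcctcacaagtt
Gabra5, chr7:57510060-57510309, minus strand: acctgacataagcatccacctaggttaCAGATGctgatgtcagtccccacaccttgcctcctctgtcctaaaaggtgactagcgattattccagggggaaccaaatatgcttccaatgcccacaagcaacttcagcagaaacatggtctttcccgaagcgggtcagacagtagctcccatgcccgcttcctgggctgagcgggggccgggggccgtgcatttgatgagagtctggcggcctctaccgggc
Dkkl1, chr7:45211884-45212133, minus strand: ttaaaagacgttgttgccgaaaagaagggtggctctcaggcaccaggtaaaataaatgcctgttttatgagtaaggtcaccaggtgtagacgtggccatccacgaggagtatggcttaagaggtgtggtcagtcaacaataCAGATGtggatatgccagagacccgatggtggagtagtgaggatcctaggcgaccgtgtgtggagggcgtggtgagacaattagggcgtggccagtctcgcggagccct
Doc2g, chr19:4003135-4003384, plus strand: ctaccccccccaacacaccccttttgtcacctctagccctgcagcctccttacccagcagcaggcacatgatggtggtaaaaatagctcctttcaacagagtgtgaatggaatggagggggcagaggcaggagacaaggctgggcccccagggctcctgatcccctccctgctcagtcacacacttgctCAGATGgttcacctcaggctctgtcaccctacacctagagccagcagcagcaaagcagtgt

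Olfactory bulb genes were lower in the hippocampus for 12 of 14 tested members and higher for none, with a median of -1.57. Doc2g, a C2-domain protein of olfactory bulb projection neurons, was at 1.58, 0.834 and 0.65 FPKM against 18.6, 27.5 and 26.4 FPKM (difference -4.05, SE 0.41, adjusted p = 5.02e-06). Th, tyrosine hydroxylase, the first enzyme of dopamine synthesis, was at 0.428, 0.304 and 0.276 FPKM against 10.1, 12.3 and 14.1 FPKM (difference -3.92). Cdhr1, a cadherin-related protein of mitral cells, was at 2.99, 2.72 and 2.19 FPKM against 13.2, 17.6 and 18.4 FPKM (difference -2.43). S100a5, a calcium-binding protein of olfactory sensory neurons, was listed at 0 in all 3 hippocampal libraries and at 3.62, 12.4 and 10.2 FPKM in the prefrontal ones. The summed level of the list was 147.5, 183.7 and 181.5 FPKM in the prefrontal libraries and 76.6 to 86.5 FPKM in the hippocampal ones, and every prefrontal library lay above every hippocampal one. The remaining genes with the largest lower differences were Ms4a15 (-3.27), Abi3bp (-3.26), a matrix protein, Eomes (-2.69), a T-box factor of mitral cells and intermediate progenitors, Omp (-2.65), the olfactory marker protein, Scn4b (-2.60), a sodium channel beta subunit, Rasgef1c (-2.59), Tnnc1 (-2.54), a troponin, and Shisa8 (-2.45), an AMPA receptor auxiliary protein.

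Forebrain transcription factors split by region in both directions. Of 28 tested members, 6 were higher and 9 lower, and without the third prefrontal library 8 were higher and 9 lower. Lhx9, a LIM homeobox factor, was at 1.83, 1.85 and 1.6 FPKM in the hippocampus against 0.0231, 0.0374 and 0.0807 FPKM (difference 2.05). Nr2f2, an orphan nuclear receptor of caudal cortex and interneurons, was at 6.09, 5.93 and 4.81 FPKM against 1.58, 1.94 and 2.66 FPKM (difference 1.27). Meis2, a TALE homeobox factor of striatal and olfactory lineages, was at 9.40, 9.42 and 10.1 FPKM against 39.4, 45.9 and 32.5 FPKM (difference -1.96, SE 0.14, adjusted p = 9.38e-08). Dlx1, a homeobox factor of GABAergic neurons, was at 5.98, 5.81 and 5.28 FPKM against 13.3, 13.3 and 12.5 FPKM (difference -1.13). Dlx1 is also a member of the olfactory bulb list, and the part of olfactory bulb transcripts in its values was not tested. The replicates of these 4 genes were close together within each region compared with the distance between regions.

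GABA-A receptor subunits, which form the chloride channels of fast inhibition, differed by subunit between the regions: 1 of 12 tested members was higher in the hippocampus and 6 were lower. Gabra5, the alpha 5 subunit of extrasynaptic receptors on hippocampal pyramidal cells, was at 63.9, 65.7 and 62.2 FPKM against 23.7, 22.1 and 16.6 FPKM (difference 1.61, SE 0.11, adjusted p = 9.67e-08). Gabrd, the delta subunit of tonic inhibition, was at 12.2, 12.7 and 14.9 FPKM against 31.5, 33.9 and 47.0 FPKM (difference -1.45, adjusted p = 4.02e-05). Gabra3, the alpha 3 subunit, was at 23.3, 26.7 and 23.8 FPKM against 62.4, 58.5 and 45.4 FPKM (difference -1.15, adjusted p = 1.9e-05). The 3 genes had no overlap between regions. Without the second prefrontal library 1 member was higher and 3 were lower, and without the third hippocampal one 3 were higher and 4 lower.

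Of 24 glutamate receptor genes, 3 were higher and 7 lower. Gria1, the GluA1 subunit of AMPA receptors, was at 178 ± 29.9 FPKM (SD, n = 3) against 80.5 ± 7.1 FPKM, with a lowest hippocampal value of 144 and a highest prefrontal value of 87.1 FPKM (difference 1.13). Grik4, the KA1 kainate receptor subunit of CA3 cells, was at 7.54, 7.92 and 6.38 FPKM against 3.02, 2.61 and 3.02 FPKM (difference 1.20). Grin2a, the NMDA receptor subunit GluN2A, was at 15.1, 15.7 and 12.7 FPKM against 8.52, 8.88 and 6.89 FPKM (difference 0.80). On the prefrontal side, Grik3, a kainate receptor subunit, was at 3.95, 5.49 and 2.88 FPKM against 9.11, 11.2 and 11.6 FPKM (difference -1.30). Grm4, a presynaptic metabotropic receptor, had 1.22, 1.86 and 2.16 FPKM against 3.4, 4.89 and 24.2 FPKM. Its difference was -1.86 with all libraries and -1.05 without the third prefrontal one, which holds cerebellar transcripts. Gria4, an AMPA receptor subunit, moved likewise from -1.28 to -0.82, and both stayed called.

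The amine and acetylcholine receptors were divided evenly with all libraries, with 8 of 30 tested members higher in the hippocampus and 8 lower. The counts were 7 higher and 9 lower without the third prefrontal library, 8 and 11 without the first and 8 and 6 without the second. Drd5, the dopamine D5 receptor, was at 5.30, 4.78 and 3.73 FPKM against 0.922, 0.951 and 0.949 FPKM (difference 1.81). Htr4, the serotonin 4 receptor, was at 1.93, 2.01 and 1.3 FPKM against 0.0559, 0.371 and 0.161 FPKM (difference 1.70). Htr2a, the serotonin 2A receptor of neocortical pyramidal cells, was at 2.67, 3.04 and 1.29 FPKM against 7.72, 9.29 and 7.78 FPKM (difference -1.68). Adra1b, an alpha 1 adrenergic receptor, was at 0.749, 0.761 and 0.974 FPKM against 7.33, 5.18 and 4.10 FPKM (difference -2.15). Chrm2, the M2 muscarinic receptor, was lower as well (difference -1.21). Drd2, the dopamine D2 receptor, did not pass and followed 1 library: it was at 1.36, 1.18 and 0.708 FPKM in the hippocampus and 0.162, 14.8 and 2.35 FPKM in the prefrontal cortex, with 14.8 FPKM in the library with the highest striatal sum (difference -0.98, adjusted p = 0.44, and 0.18 without that library).

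Potassium channel subunits, which set resting potential and spike shape, were mostly on the prefrontal side: 17 of 40 tested members were lower in the hippocampus and 2 were higher, with a median of -0.24 against -0.01 over all genes. Kcnt1, a sodium-activated channel, was at 3.96, 3.78 and 4.03 FPKM against 10.8, 11.3 and 17.9 FPKM (difference -1.61). Kcnh4, an ether-a-go-go family channel, was at 0.369, 0.515 and 0.354 FPKM against 2.79, 2.73 and 1.45 FPKM (difference -1.59). Kcnip2, an accessory subunit of A-type channels, was 1 of the 2 higher members, at 55.9, 52 and 50.5 FPKM against 32.4, 41 and 24.9 FPKM (difference 0.71). Without the third prefrontal library 3 members were higher and 17 lower, and without the second prefrontal one 4 and 17. The lower count was 14 without the first prefrontal or the first hippocampal library.

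**Figure D4:**
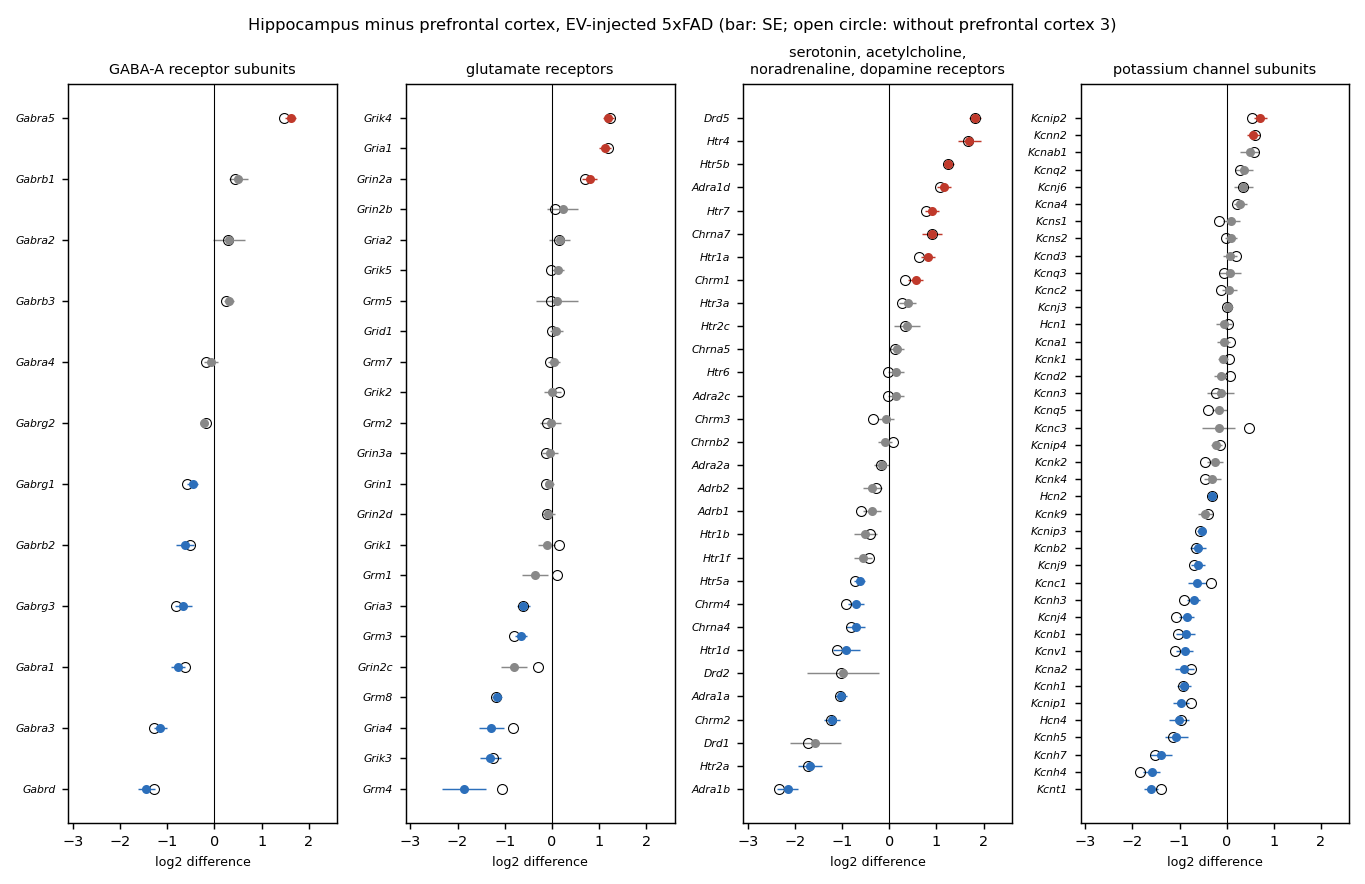
Log2 differences (hippocampus minus prefrontal cortex, log2(FPKM + 0.5)) with SE for the tested members of the receptor and channel lists, 1 glutamate receptor left out, in EV-treated 5xFAD mice; open circles are the values without the third prefrontal library. Gabra5 (1.61) and Drd5 (1.81) lie on the hippocampal side, and Adra1b (-2.15) and Kcnt1 (-1.61) on the prefrontal side.

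Interneuron and neuropeptide genes were lower in the hippocampus for 10 of 22 tested members and higher for 1, with a median of -0.63. Without the third prefrontal library 9 were lower and 2 higher, with a median of -0.38. Vip, vasoactive intestinal peptide, was at 8.18, 10.4 and 18.1 FPKM against 33, 26 and 19.5 FPKM (difference -1.11), and the third hippocampal library nearly met the third prefrontal one. Penk, proenkephalin, was at 32.3, 26.1 and 25.8 FPKM against 48.1, 263 and 86.2 FPKM (difference -1.87), and Tac1, the substance P precursor, was at 7.73, 5.72 and 7.45 FPKM against 14.5, 67.1 and 18.7 FPKM (difference -1.86). Both peptides also mark striatal projection neurons and were highest in the library with the highest striatal sum. Pnoc, the nociceptin precursor, was the member called higher (difference 0.71). Bulk tissue cannot tell fewer cells of a type from less RNA in each of them, here and in the other lists.

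Presynaptic genes were lower for 6 of 24 tested members and higher for 1, where 8.32% of all genes were lower and 8.6% higher. The lower count was 3 without the first hippocampal library and 4 without the first or the second prefrontal one. Stx1a, the membrane SNARE syntaxin 1A, was at 29.1, 36.2 and 40.2 FPKM against 107, 81.7 and 55.2 FPKM (difference -1.16). Snap25, its SNARE partner, had a difference of -0.46 that was called in 3 of the 6 fits leaving out 1 library, and Syn2, a vesicle-tethering synapsin, was the higher member at 0.50.

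Immediate early genes, which neurons transcribe after activity, were higher for 4 of 24 tested members and lower for 2, with a median of -0.04. Over all genes 8.6% were higher and 8.32% lower, and the lower count is not read as a result beside that share. Nr4a3, an orphan nuclear receptor, was at 13.3, 13 and 11.5 FPKM in the hippocampus and at 2.11, 2.54 and 1.67 FPKM in the prefrontal cortex (difference 2.34). Jun, an AP-1 subunit, was at 40, 41 and 38.4 FPKM against 13.4, 12.6 and 17.1 FPKM (difference 1.45). Bdnf, the neurotrophin made by active neurons, was at 6.57, 6.87 and 5.85 FPKM against 3.24, 3.35 and 2.63 FPKM (difference 0.96). Fosb had a difference of -0.67 and Nptx2, a secreted pentraxin, of -0.62. Their calls were unsteady: Fosb was called in 3 and Nptx2 in 2 of the 6 fits leaving out 1 library, and the lower count was 0 without the first prefrontal, the second prefrontal or the first hippocampal library.

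Stress hormone genes were led by the mineralocorticoid receptor gene Nr3c2, which was at 24.1, 23.2 and 17.7 FPKM in the hippocampus and 5.58, 6.30 and 6.13 FPKM in the prefrontal cortex (difference 1.76, SE 0.13, adjusted p = 1.55e-07). The glucocorticoid receptor gene Nr3c1 was slightly lower (difference -0.34, adjusted p = 0.0286) and was called in 1 of the 6 fits leaving out 1 library, with adjusted p from 0.0464 to 0.0808. Fkbp5, a chaperone that glucocorticoids induce, was at 19.4, 19.0 and 18.6 FPKM against 8.06, 11.1 and 7.91 FPKM (difference 1.05). Hsd11b1, the enzyme that regenerates active glucocorticoid, was higher by 1.08, and Crh, corticotropin-releasing hormone, and its receptor Crhr1 were lower (-1.39 and -0.99). Of 11 tested members 4 were higher and 3 lower.

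Genes of newborn neurons and progenitors, which the adult dentate gyrus produces, were lower in the hippocampus for 5 of 11 tested members and higher for 2. Without the third prefrontal library 6 were lower and 3 higher. Dcx, doublecortin of migrating neurons, was at 1.18, 1.78 and 1.04 FPKM against 3.75, 4.43 and 4.36 FPKM (difference -1.37). Stmn1, a tubulin-binding protein, was at 253, 297 and 467 FPKM against 787, 693 and 556 FPKM (difference -1.04), and Sox4 was at 3.4, 3.09 and 3.17 FPKM against 6.22, 6.58 and 6.58 FPKM (difference -0.90). Bhlhe22, a bHLH factor of dentate granule cell development, was at 29.9, 28.8 and 28.7 FPKM against 15.4, 10.8 and 17.3 FPKM (difference 1.01). Olfactory bulb markers, also a place where Dcx-positive neurons arrive, were high in the same prefrontal libraries, and their part in these values was not tested. The proliferation genes Mki67, Top2a and Cdk1 stayed below the filter on low levels in the series and were not tested. Their values in the 6 libraries were between 0.12 and 0.465 FPKM.

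Myelin genes were higher in the hippocampus for 11 of 17 tested members and lower for none, with a median of 0.44. Cldn11, the tight junction protein of myelin, was at 85.9, 80.5 and 102 FPKM against 53.7, 55.2 and 54.5 FPKM (difference 0.70). Mbp, myelin basic protein, was at 694, 634 and 848 FPKM against 411, 531 and 558 FPKM (difference 0.54, SE 0.16, adjusted p = 0.0272), and was called in 3 of the 6 fits leaving out 1 library, with adjusted p from 0.0228 to 0.123. The count of called members was 6 without the first prefrontal library and 5 without the third hippocampal one. Precursor genes were higher for 3 of 11 members, Bcas1, Neu4 and Sox10, with 0 called without the third hippocampal library and 5 without the second hippocampal one.

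Reactive astrocyte genes were higher for 7 of 14 tested members, with a median of 0.62. Of 20 general astrocyte genes 2 were called higher, a share near that of all genes (8.6%), with 4 called without the third prefrontal library and 1 without each of 4 other libraries. Of these 2, Mlc1 was called in 1 of the 6 fits leaving out 1 library. Gfap, the astrocyte intermediate filament, was at 317, 334 and 444 FPKM in the hippocampus and at 113, 120.0 and 114 FPKM in the prefrontal cortex (difference 1.64, SE 0.18, adjusted p = 8.64e-06). Serpina3n, a protease inhibitor of reactive astrocytes, was at 49.5, 51.1 and 65.7 FPKM against 13.8, 13.2 and 11.8 FPKM (difference 2.05). C4b, complement component 4, was at 24.4, 27.1 and 25.9 FPKM against 8.59, 8.52 and 8.16 FPKM (difference 1.56). Cd109, a membrane-anchored protease inhibitor, was at 1.78, 1.42 and 1.23 FPKM against 0.128, 0.257 and 0.327 FPKM (difference 1.42), and Osmr, the oncostatin M receptor, was higher by 0.96. The wildtype mice, which carry no transgene, had regional differences in the same direction for Gfap (1.85), Serpina3n (1.77), C4b (1.11) and Cd109 (1.58). Without the second prefrontal library 4 of the 14 members were called, and 5 without the third prefrontal one.

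Microglial genes were higher in the hippocampus as well, and their counts turned on single libraries. Among markers of microglia in all states, 10 of 14 tested members were higher and none lower, with a median of 0.66. C1qa, a chain of the complement initiator C1q, was at 171, 168 and 312 FPKM against 138, 112 and 99.3 FPKM (difference 0.85, adjusted p = 0.00604). Ctss, the protease cathepsin S, was at 244, 248 and 436 FPKM against 211, 162 and 156 FPKM (difference 0.77). In both genes the third hippocampal library was the highest by a wide margin, and the regions did not overlap. The count was 5 without the third hippocampal library, 6 without the third prefrontal one and 0 when the spread was estimated from the 6 EV libraries alone. Of 14 homeostatic microglial genes 0 were called with all libraries, 4 without the first prefrontal and 2 without the second hippocampal library. P2ry12, a purinergic receptor of resting microglia, was at 32.2, 27.1 and 47.1 FPKM against 37.8, 30.9 and 26.4 FPKM (difference 0.14, adjusted p = 0.657).

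Plaque-associated microglial genes, which microglia switch on around amyloid, were higher for 11 of 30 tested members and lower for none. Trem2, the lipid receptor needed for that state, was at 63.5, 61.4 and 113 FPKM against 50.8, 41.6 and 39.5 FPKM (difference 0.79, adjusted p = 0.0142), and its call was lost without the third prefrontal library (adjusted p = 0.051) and without the third hippocampal one (adjusted p = 0.0597). Cst7, cystatin F, was at 72.4, 68.2 and 184 FPKM against 65.4, 46.9 and 50.5 FPKM and did not pass (difference 0.85, adjusted p = 0.0517). Lpl, lipoprotein lipase, was at 18.8, 18 and 22.4 FPKM against 8.73, 11.2 and 5.72 FPKM (difference 1.20). Ch25h, cholesterol 25-hydroxylase, was at 2.06, 1.51 and 4.6 FPKM against 0.982, 0.572 and 1.05 FPKM (difference 1.14). The count was 6 without the third hippocampal library, 6 without the second prefrontal one and 7 without the third prefrontal one. It was 4 when the spread was estimated from the 6 EV libraries alone.

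Complement genes were higher for 8 of 13 tested members, and C3, the central component, was at 1.55, 0.963 and 0.843 FPKM against 0.119, 0.356 and 0.231 FPKM (difference 1.13, adjusted p = 0.000241). Unlike the C1q genes, C3 was not highest in the third hippocampal library. Lysosomal genes were higher for 11 of 22 members, led by the protease gene Ctsd at 800, 728 and 1176 FPKM against 590, 479 and 513 FPKM (difference 0.75). Antigen presentation by MHC class I was higher for 5 of 11 members, among them Tap1, the peptide transporter, at 2.62, 4.06 and 5.3 FPKM against 1.76, 1.92 and 1.65 FPKM (difference 0.94), and H2-K1 (0.66). Of 6 MHC class II genes H2-DMb1 was called, and of 20 interferon-response genes Bst2 (0.97) and Trim30a were, counts that are not read as a result beside the 8.6% of all genes. H2-DMb1 and Trim30a were each called in 1 of the 6 fits leaving out 1 library. MHC class II had 0 to 2 called members and the interferon list 0 to 4. Without the third hippocampal library the counts were 4 for complement, 6 for lysosomal genes and 3 for MHC class I, without the third prefrontal library 5, 6 and 3, and without the second prefrontal library 5, 6 and 4. When the spread was estimated from the 6 EV libraries alone, they were 2, 1 and 3. The summed microglial markers, at 1100, 1087 and 1933 FPKM against 954.7, 764.4 and 696.2 FPKM, moved with all of these lists, and their part in the lists' differences was not tested.

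The lists of the ventricular lining had the highest medians of all lists, and their counts turned on single libraries. Choroid plexus genes were higher in the hippocampus for 8 of 18 tested members, with a median of 2.13. Ttr, the thyroid hormone carrier transthyretin that the choroid plexus secretes, was at 5532, 2207 and 178 FPKM in the hippocampus and 11.6, 3.08 and 836 FPKM in the prefrontal cortex. The regions overlapped, because the third hippocampal library lay below the third prefrontal one, and the difference was 5.29 (SE 1.51, adjusted p = 0.0239) with all libraries and 7.62 (adjusted p = 0.000224) without the third prefrontal one. Ttr was called in 2 of the 6 fits leaving out 1 library. Kl, the klotho gene, followed at 50.4, 20.9 and 4.29 FPKM against 0.474, 0.523 and 7.05 FPKM (difference 3.15). The number of called members was 17 without the third prefrontal library, 18 without the third hippocampal one, and 2, 3, 1 and 3 without the first prefrontal, second prefrontal, first hippocampal and second hippocampal library. It was 0 when the spread was estimated from the 6 EV libraries alone. No member had groups without overlap.

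Ependymal genes of motile cilia were higher for 9 of 12 tested members, with a median of 1.51. Ccdc153 was at 13.7, 7.85 and 4.29 FPKM against 0.144, 1.17 and 0.706 FPKM (difference 2.92, adjusted p = 0.00217). The hippocampal libraries ranked as they did for the choroid plexus sum, but the lowest stayed above every prefrontal value. The count was 3 without the first prefrontal library, 3 without the first hippocampal one, 4 without the second hippocampal one, 6 without the second prefrontal one and 12 without the third hippocampal one. Few vessel genes were called. Of 16 endothelial genes Abcb1a, the P-glycoprotein efflux pump, was called lower (-0.60), and none of 14 pericyte and smooth muscle genes was called. None of those 14 had a difference above 0 (median -0.24). Of 15 meningeal fibroblast genes Dcn, decorin, was the 1 called, higher at 33.7, 39 and 25 FPKM against 5.78, 10.6 and 13.1 FPKM (difference 1.73). That list's median was -0.35, and 4 of its 15 members had a difference above 0. Beside the 8.6% higher and 8.32% lower over all genes, these counts are not read as a result. The red cell list had 1 of 7 tested members called higher, and 0 without the third prefrontal library. On that list Hbb-bs, a haemoglobin chain, was not called (adjusted p = 0.912) and was at 6.28 to 38.9 FPKM in the hippocampus and 6.93 to 38.7 FPKM in the prefrontal cortex.

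Striatal and cerebellar genes followed single libraries. Of 20 striatal projection neuron genes 6 were lower in the hippocampus and 1 higher, with a median of -1.12. Serpina9, a serpin on that list, was at 0.016, 0.0147 and 0 FPKM against 0.196, 5.44 and 1.81 FPKM (difference -2.05, adjusted p = 0.0136). The second prefrontal library was the highest, yet leaving it out gave 3 lower members, and leaving out the first prefrontal library, whose striatal sum was in the hippocampal range, gave 13. Of 13 cerebellar granule cell genes none was higher and 3 were lower, and without the third prefrontal library 3 were higher and 2 lower. Neurod1, a bHLH factor of dentate and cerebellar granule cells, was at 10.2, 8.92 and 10 FPKM against 4.92, 3.96 and 66.1 FPKM. Its difference was -0.20 (adjusted p = 0.878) with all libraries and 1.05 (adjusted p = 0.00014) without the third prefrontal one. Of 14 Purkinje and Bergmann cell genes 3 were lower (5 without the first or the second prefrontal library), and without that library 3 were higher and 4 lower. Of 14 thalamic genes 4 were lower with it, and 1 was higher and 2 lower without it, with 2 lower also without the first or the second hippocampal library.

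Some calls were lost without that library and without others too. Adora2a, the striatal adenosine receptor (-2.24), and Lrrc10b (1.98) were each called in 1 of the 6 fits leaving out 1 library, and Ccl12, a chemokine (1.65), in 2. Ccl12 was at 3.18, 6.93 and 17.3 FPKM against 1.16, 4.21 and 1.5 FPKM. Il16, an interleukin precursor also transcribed in cerebellar neurons, was not called by limma with all libraries and was called without the third prefrontal one: it was at 6.67, 6.22 and 4.64 FPKM against 0.52, 0.517 and 9.77 FPKM, and its difference moved from 1.51 to 2.62 (adjusted p = 9.13e-08). With voom on recovered reads it was called with all libraries as well (2.02, adjusted p = 0.0377). Ecrg4, Kcne2, Clic6 and Slc4a5, all choroid plexus genes, were called without the third prefrontal or the third hippocampal library and not otherwise among the 6 fits. Without the third prefrontal library their differences moved from 2.37, 2.24, 2.29 and 1.87 to 3.35, 3.18, 3.12 and 2.49.

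The genes tied to the 5xFAD transgenes included App and Thy1. App, the amyloid precursor gene, was at 98.5, 102 and 92.3 FPKM in the hippocampus and at 100.4, 99 and 94.5 FPKM in the prefrontal cortex (difference -0.01, adjusted p = 0.96), and its sign changed when single libraries were left out. Whether reads of the human transgene were counted to the mouse gene is not given in the sources used here, so App is not read as a measure of the transgene. Thy1, whose promoter drives the transgenes, was at 1218, 1287 and 1415 FPKM against 1134, 936 and 768 FPKM (difference 0.48, adjusted p = 0.0175). Its mean level in hippocampus and prefrontal cortex was 1232 and 1098 FPKM in the PBS-treated 5xFAD mice. In the wildtype mice it was 465.5 and 469.4 FPKM. Whether transgene reads were counted to Thy1 was not tested, so its difference is not read as that of the mouse gene alone. Thy1 lost its call without the third prefrontal library (0.34, adjusted p = 0.0779) and without the third hippocampal one (adjusted p = 0.0593). Of 17 genes of APP processing, Thy1 was the 1 higher member, and Ece1, an amyloid-degrading peptidase, and Aplp2 were lower, Aplp2 in 2 of the 6 fits leaving out 1 library. Beside the 8.6% higher and 8.32% lower over all genes, these counts are not read as a result. The counts were 2 higher and 1 lower without the third prefrontal library and 0 higher and 1 lower without the third hippocampal one.

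Lipid genes were called at shares near or below the 16.9% of all genes. Of 20 genes of fatty acid uptake and handling 1 was higher, Cpt1c, the neuronal carnitine palmitoyltransferase, at 39.4, 38.7 and 39.6 FPKM against 27.3, 25.8 and 24.2 FPKM (difference 0.60), and 2 were lower, which became 3 higher and 1 lower without the third prefrontal library. Cd36, the fatty acid and scavenger receptor, was at 0.612, 1.03 and 0.404 FPKM against 1.47, 0.54 and 0.549 FPKM (difference -0.16, adjusted p = 0.785), and the regions overlapped. Of 21 genes of cholesterol synthesis, Stard4 (-0.55) and Insig1 (-0.28) were lower, Insig1 in 2 of the 6 fits leaving out 1 library. Apoe, the main lipid carrier of glia, had a difference of 0.51 (adjusted p = 0.0361) that was called in 1 of the 6 fits leaving out 1 library (adjusted p from 0.0288 to 0.14).

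The regional comparison was repeated in the other 2 mouse groups to place these values. The 3 comparisons share no library, but they share 1 estimate of the spread. In 5xFAD mice given PBS, 3410 genes (25.1%) differed between hippocampus and prefrontal cortex, 2082 higher (15.3%) and 1328 lower (9.78%), and in wildtype mice 2156 genes (15.9%) did, 1184 higher (8.72%) and 972 lower (7.16%). Of the 2297 genes called in the EV mice, 1801 were called in the same direction in the PBS-treated 5xFAD mice and 1482 in the wildtype mice, and 1350 were called in all 3 groups, 681 higher and 669 lower. C1ql2 had differences of 5.57, 5.72 and 5.92 in EV, PBS and wildtype mice, and Fibcd1 of 3.56, 3.25 and 3.39. Tbx18, a T-box factor of pericytes and meninges, was the 1 gene called in opposite directions in the EV (-0.36) and the PBS-treated 5xFAD mice (0.36). It was at 0.352, 0.365 and 0.453 FPKM in the EV hippocampus and 0.538, 0.687 and 0.697 FPKM in the EV prefrontal cortex, and the EV call (adjusted p = 0.0486) was kept in 2 of the 6 fits leaving out 1 library.

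Several lists had different counts by mouse group. Microglial markers of all states were higher for 10 of 14 in the EV mice, 7 in the PBS-treated 5xFAD mice and 0 in the wildtype mice, and plaque-associated genes for 11, 15 and 2 of 30. Complement genes were higher for 8, 10 and 2 of 13, and MHC class I genes for 5, 9 and 1 of 11. Choroid plexus genes were higher for 8, 18 and 1 of 18, while ependymal genes were higher for 9, 10 and 11 of 12. Among neuronal lists, CA1 genes were higher for 7, 7 and 7 of 10 and dentate genes for 10, 11 and 10 of 20. Striatal genes were lower for 6, 15 and 11 of 20, presynaptic genes for 6, 11 and 6 of 24, neocortical excitatory genes for 5, 9 and 7 of 16 and immediate early genes for 2, 5 and 8 of 24. These counts do not test a difference between the mouse groups, which is the next comparison.

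**Figure D5:**
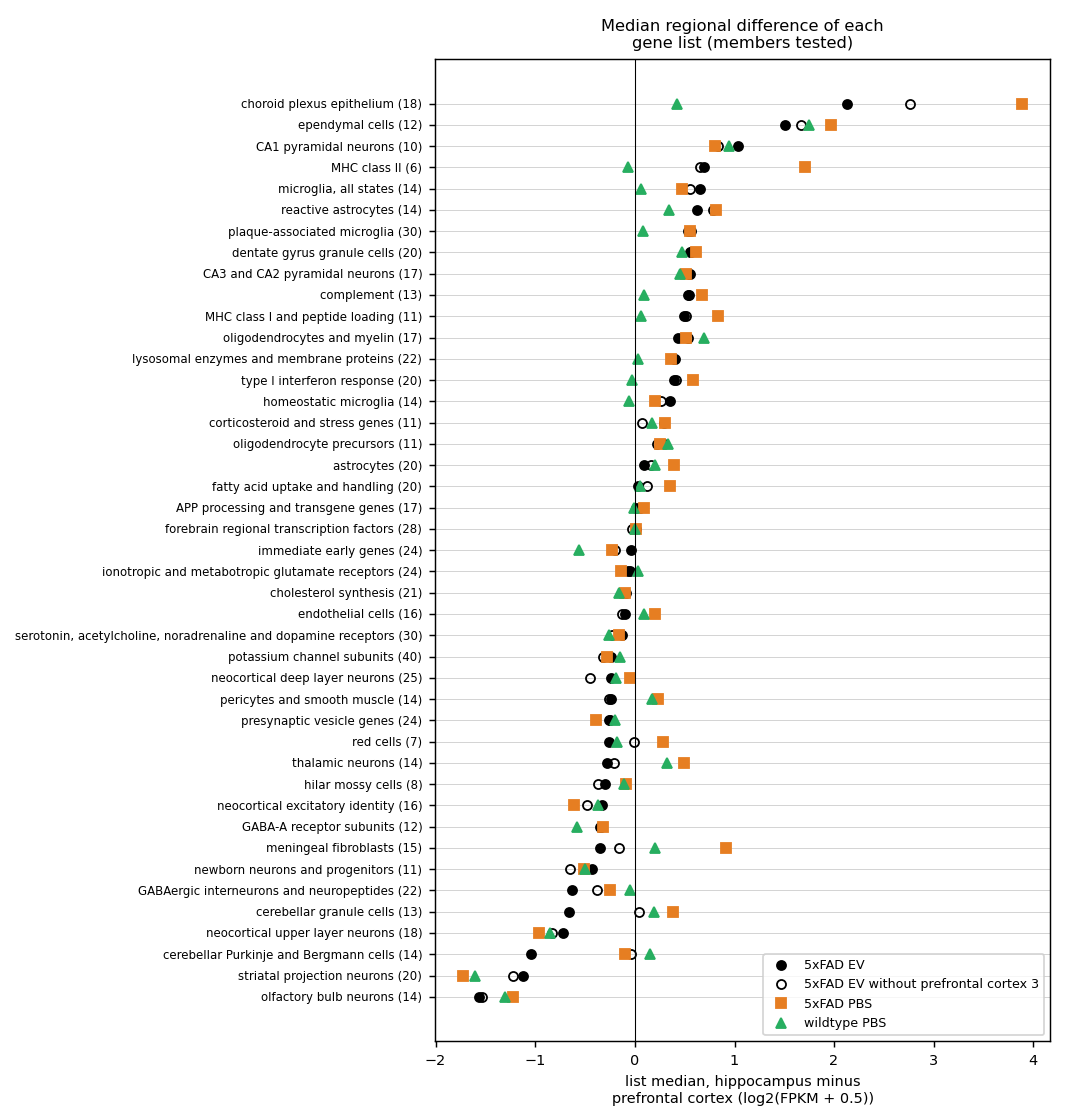
Median log2 difference, hippocampus minus prefrontal cortex, of the tested members of each gene list (number in brackets), in EV-treated 5xFAD mice (filled black), the same without the third prefrontal library (open), PBS-treated 5xFAD mice (orange squares) and wildtype mice (green triangles). The CA1 median lies between 0.8 and 1.03 in all groups, while the choroid plexus median is 2.13 in the EV mice.

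Whether the regional difference itself changed with treatment was tested as the difference of the 2 regional differences. Against the PBS-treated 5xFAD mice limma called 0 of 13574 genes, 680 (5.01%) had an unadjusted p under 0.05, and with voom weights on recovered reads no gene was called (0 genes) and 622 (4.58%) had such a p. Against the wildtype mice limma called 0 genes, 561 (4.13%) had an unadjusted p under 0.05, and voom called 0 genes, with 545 (4.02%). Without the third EV prefrontal library the counts of unadjusted p under 0.05 were 327 (2.41%) and 407 (3%), and 0 genes were called. The smallest p against PBS belonged to C1qtnf7, a C1q/TNF-related protein (-0.89, adjusted p = 0.992), and against wildtype to Nr4a3 (1.03, adjusted p = 0.975). The median SE of these differences was 0.185 on the log2 scale. With 3 libraries per group the shifts of C1qtnf7 and Nr4a3, well above that SE, were not called. A count of 0 calls therefore does not exclude shifts of that size in single genes. The regional difference of Nr4a3 was 2.34 in the EV mice and 1.31 in the wildtype mice, that of Bdnf 0.96 and 0.18, and that of Cd36 -0.16 in the EV mice and 0.90 in the PBS-treated 5xFAD mice. Among these, no change of the regional difference between mouse groups passed the test.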

How the data were processed

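RNA-seq of hippocampus and prefrontal cortex was analysed from 1 deposited table. The authors deposited FPKM values per gene for all 18 libraries. Per the submitters' processing notes fastp, HISAT2, HTSeq and the GRCm39 build were used, with versions, annotation and strand setting not given in the sources used here. Groups follow the genotype, treatment and tissue labels.

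Values were tested as log2(FPKM + 0.5) with limma 3.58.1 in R 4.3.3 (group means over all 18 libraries, trended prior, 2-sided, Benjamini-Hochberg over 13574 of 18683 genes), after a check on simulated data. Each deposited FPKM value was a whole number of reads within 0.001 for 100% of genes, and voom on those reads was an alternative. Other pseudocounts (0.1 and 1), filters, scaling, a replicate term, fewer libraries and leaving out each library were also tried. Repeating these without the third EV prefrontal library, and the list counts per left-out library, were chosen after seeing the data. No sample column was left unused. Replicates differed by more than counting noise, so none was merged.

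Named genes are, per direction, the 12 with the largest difference among genes called with and without the third EV prefrontal library, without overlap, with a mean of at least 1 FPKM and a symbol that is no placeholder; up to 4 called members per list and direction; 13 genes always reported; and the 6 genes with the largest difference whose call was lost or gained without that library. Members and lists were chosen with earlier results of these data known. Sequences come from RefSeq's promoter table (GRCm38.p6). A few genes that the naming rule gives are not reported here.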

Additional observations from a re-analysis of the deposited data

How the results depend on the processing

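The count of 2297 called genes was 2161 to 2316 under other pseudocounts, filters, median scaling and voom, and 1628 to 2158 when 1 EV library was left out, the lowest without the first hippocampal and the highest without the third hippocampal library. It was 1282 with the spread estimated from the 6 EV libraries alone, and the count without the third EV prefrontal library was 1321 with the 5 other EV libraries alone instead of 2101. The 511 genes over 2-fold were 371 to 726 under these settings and 443 to 622 with 1 library left out, and 77 genes passed limma's treat test against 1 log2 unit. Changes of the regional difference were called for 0 genes under each setting but 1: without a filter on low levels, 1 gene, Septin1, was called against PBS-treated 5xFAD mice (-0.65, adjusted p = 0.0304), with all of its 18 values between 0.149 and 0.501 FPKM.

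Labels number the replicates of each group alike. In the EV mice the same-numbered libraries' deviations correlated at -0.243, 0.086 and -0.209. They correlated at 0.381, 0.495 and 0.012 in the PBS-treated 5xFAD mice and at 0.305, 0.166 and -0.275 in the wildtype mice. Such correlations cannot tell whether same-numbered libraries share a mouse, because the libraries also differed in the other tissue they held. With the replicate block 2253 genes were called, 507 of them over 2-fold, the regional differences stayed at 0 calls, and without the third EV prefrontal library 2297 were called. In the 6 EV libraries alone with the replicate block 655 were called, 333 of them over 2-fold. Among the lists, the block moved the higher members from 8 to 3 for choroid plexus, from 2 to 5 for interferon-response and from 2 to 4 for astrocyte genes, and the lower Purkinje and Bergmann members from 3 to 5.

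Directions changed in 4 of 48 named genes, none of them called. With 1 EV library left out App ran from -0.038 to 0.033 (0.012, 0.001 and 0.033 without the first prefrontal, the second prefrontal and the third hippocampal library), and Cd36 from -0.364 to 0.145 (0.145 and 0.017 without the first prefrontal and the third hippocampal library). Wfs1 ran from -0.124 to 0.252 (-0.124 and -0.021 without the third prefrontal and the third hippocampal library), and Drd2 from -2.085 to 0.179 (0.179 without the second prefrontal library). Of the 37 called named genes, 5 to 8 lost their call in each of the 6 fits that leave out 1 EV library. The cause of these shifts was not tested. The median SE of a change of the regional difference was 0.185 log2 units. With 3 libraries per group, changes well above that SE could also go uncalled.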

Other observations

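Some genes separated the regions in the EV mice with and without the third prefrontal library and were not called in the other mouse groups. There were 113 such genes among the 13574 tested, 30 higher and 83 lower in the hippocampus. None of them passed the adjusted test for a change of the regional difference between mouse groups. The genes named here were chosen after their values were seen. Omp, the olfactory marker protein, was at 0.141, 0.169 and 0.145 FPKM in the hippocampus and 1.71, 6.38 and 4.0 FPKM in the prefrontal cortex. Its regional difference was -2.65 in the EV, -1.20 in the PBS-treated 5xFAD and -1.56 in the wildtype mice. Nppa, the natriuretic peptide A gene, was listed at 0, 0 and 0.044 FPKM in the hippocampus and at 1.07, 1.45 and 0.865 FPKM in the prefrontal cortex. Meis1, a homeobox factor, was at 0.242, 0.531 and 0.527 FPKM against 1.25, 1.52 and 5.8 FPKM, with the highest value in the library that holds cerebellar transcripts, and Mybpc1, a myosin-binding protein, had 5.68 FPKM in that library and 1.25 and 1.37 FPKM in the other prefrontal ones. For both genes the regional difference was called without that library as well, at -1.03 and -1.06.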
